A study of Caenorhabditis elegans with 2 samples.

Results

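The genes described here are 10 centromere and kinetochore genes of the nematode Caenorhabditis elegans, of 19973 protein-coding genes on its nuclear chromosomes, and the question is where the zinc finger protein ZTF-18 was found near them. They are hcp-3, knl-2, hcp-4, hcp-6, knl-1, knl-3, mis-12, ndc-80, him-10 and bub-1, and each was found by its symbol in the WBcel235 annotation. The genes were selected on the peak signals of these same samples, among them the high signals at knl-3 and hcp-3, so their counts and signals are a description and carry no test. Chromatin immunoprecipitation with sequencing had been done on whole young adult hermaphrodites of strain OP496, collected 64 h after L1 larvae, starved following bleaching, were released in synchrony. This line carries a stable ZTF-18 transgene whose protein ends in a GFP-FLAG tag, and the DNA was precipitated through the GFP. Both samples belong to 1 group and are called biological replicates 1 and 2, with no treated or untagged group beside them. The labels do not say which promoter drives the transgene, or whether untagged ZTF-18 was also present. In whole animals, binding in few cells and weak binding in many cells cannot be told apart.

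Kinetochores join chromosomes to spindle microtubules during cell division. In most animals they form at 1 spot per chromosome, whereas C. elegans chromosomes are holocentric and carry kinetochores along their length. The histone H3 variant CENP-A, encoded by hcp-3, marks the chromatin on which they are built, KNL-2 and the CENP-C protein HCP-4 act next to it, and the KMN network of KNL-1, the Mis12 complex and the Ndc80 complex forms the outer part that holds microtubules. The germ line of young adult hermaphrodites contains dividing cells, which use these proteins.

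Of the 10 genes, 5 (hcp-3, hcp-6, knl-1, knl-3 and bub-1) had a summit of the authors' thresholded peak list between 1000 bp upstream and 200 bp downstream of their annotated 5′ end, a window called the promoter window here, and genes with such a summit are called bound. All protein-coding genes together had one at 8.18%. The signals of the 5 fell into 2 ranges. At knl-3 and hcp-3 they were 5397 and 3709.6, ranks 12 and 34 of 2465, and at hcp-6, knl-1 and bub-1 they lay between 139 and 193. The strongest 100 nuclear peaks reached 0.716% of protein-coding genes and 2 of these 10. Signal here is the authors' own number for a peak, measured against a control alignment. Its scale is not stated, and it serves only to rank and describe peaks within a list.

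DNA at the summits of knl-3 and hcp-3 held a sequence shared with other strong peaks, and the DNA at knl-1 did not. The sequence was derived from the 100 strongest nuclear peaks that lay at neither these 10 genes nor 37 related genes, by aligning the DNA within 50 bp of each summit over 30 columns. Of those peaks 98 entered the alignment. The most uniform columns held G (column 11, 98.3%), A (column 14, 97.7%) and C (column 10, 97.3%), and no base exceeded 50.3% in columns 18 to 30. A match, sought on both strands, scored above the 99th percentile of flanking DNA (10.5 bits). The stretches below are RefSeq WBcel235 sequence, 5′ to 3′, and capitals mark the matching columns. They are shown because knl-3 and hcp-3 carry the highest signals, cpar-1 is a close copy of hcp-3, mdf-2 (the spindle checkpoint gene for Mad2) ranked next among related genes, and knl-1 is a bound gene with no match. The stretches are chrV:1868764-1868833 (plus strand) for knl-3, chrIII:9617118-9617187 (plus strand) for hcp-3, chrIII:9433751-9433820 (minus strand) for cpar-1, chrIV:2641128-2641197 (plus strand) for mdf-2 and chrIII:8250437-8250507 (plus strand) for knl-1.
knl-3: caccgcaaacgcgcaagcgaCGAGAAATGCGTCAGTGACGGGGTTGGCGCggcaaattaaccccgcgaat
hcp-3: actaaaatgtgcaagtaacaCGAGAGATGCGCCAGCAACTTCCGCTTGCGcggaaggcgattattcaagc
cpar-1: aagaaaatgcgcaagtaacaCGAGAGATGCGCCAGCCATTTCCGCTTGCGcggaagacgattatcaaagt
mdf-2: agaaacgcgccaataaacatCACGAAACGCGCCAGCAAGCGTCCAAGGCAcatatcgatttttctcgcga
knl-1: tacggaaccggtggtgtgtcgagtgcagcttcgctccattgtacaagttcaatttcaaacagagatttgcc

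The match at hcp-3 scored 34.4 bits and the one at knl-3 30.9 bits. Their 30 matched positions were identical at 15, and those of hcp-3 and mdf-2 at 17. The matched stretch of hcp-3 differed from that of cpar-1 at few positions, with 28 of 30 identical. Relative to the gene, the match read in the same direction at knl-3, centred 414 bp upstream of its 5′ end, and in the opposite direction at hcp-3 (683 bp), cpar-1 (271 bp) and mdf-2 (38 bp). A match describes letters and does not show a binding site.

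**Figure D1:**
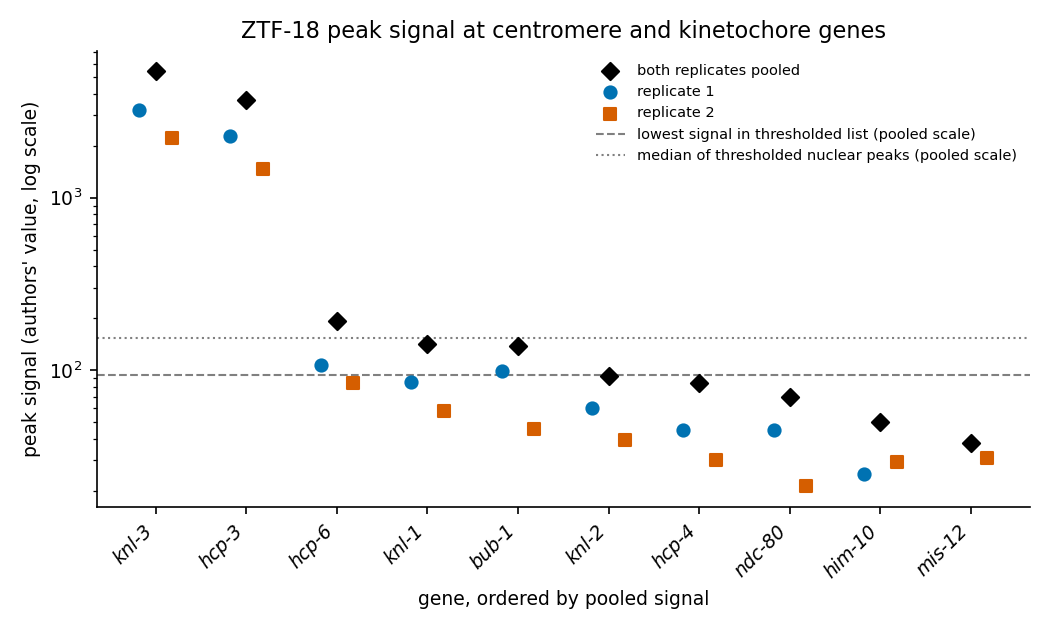
Peak signal of the strongest summit in the promoter window of each gene (y axis, authors' value, log scale) for both replicates pooled (diamonds), replicate 1 (circles) and replicate 2 (squares), with the lowest and the median pooled signal of the thresholded list as dashed and dotted lines. The genes knl-3 (5397) and hcp-3 (3709.6) stand far above the other 8, of which hcp-6 (193) is the highest, and mis-12 has no point for replicate 1 because that list held no summit in its window.

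Among the centromeric chromatin genes of the 10, hcp-3 had a strong peak, while knl-2 and hcp-4 stood below the end of the thresholded list. The gene hcp-3 lies on chromosome III, 9615306 to 9616470, on the minus strand. Its peak spanned 9616432 to 9617507 (1076 bp, where the median thresholded nuclear peak spanned 510 bp), with the summit 661 bp upstream of the 5′ end in intergenic DNA. The signal was 2294 in replicate 1 (rank 31 of 26104 peaks) and 1472 in replicate 2 (rank 39 of 27612), with summits at 668 and 656 bp. The pooled signal of 3709.6 was 24.1 times the median of thresholded nuclear peaks and 33.4% of the highest signal in the list. A second thresholded summit in the same interval lay 428 bp upstream with a signal of 233 (rank 674), and neither replicate list held a summit there. No other gene had the main summit in its window. The next gene upstream, hlh-11, which encodes a basic helix-loop-helix protein, starts 3240 bp away on the opposite strand.

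KNL-2 helps to load CENP-A onto chromatin, and its gene (chromosome I, 6460878 to 6464286, plus strand) was not in the thresholded list by the window used. The strongest pooled summit lay 82 bp upstream with a signal of 92.0 at rank 2536, just below the last thresholded signal of 93.6. The signal was 60.3 in replicate 1 (rank 2373, 260 bp upstream) and 39.2 in replicate 2 (rank 3019, 49 bp downstream), so the replicates placed their summits 309 bp apart. A thresholded summit of signal 115.02 (rank 1889) lay 1162 bp upstream, outside the window. The CENP-C gene hcp-4 (chromosome I, 3862833 to 3865938, minus strand) had its strongest pooled summit 700 bp upstream with a signal of 84.4 at rank 2867. The values were 44.8 in replicate 1 (rank 3685) and 30.03 in replicate 2 (rank 4783). That summit was also 903 bp upstream of pgk-1, the phosphoglycerate kinase gene on the opposite strand.

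The threshold separated these genes by pooled signal and not by q-value. The last thresholded peak had a signal of 93.5672 and the next pooled peak 93.5666. Nearest to it among the 10 genes, bub-1 lay inside with 139 (rank 1460) and knl-2 outside with 92.0. The deposited −log10 q was 2.78 at the 5 thresholded genes and also at knl-2 and hcp-4, since 3291 pooled peaks carried this highest value.

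HCP-6 is a subunit of condensin II, a complex that compacts and stiffens mitotic chromosomes. Its gene (chromosome I, 5165148 to 5171313, plus strand) had a narrow peak of 194 bp from 5164940 to 5165133, with the summit 96 bp upstream. The pooled signal was 193 at rank 895, which is 1.25 times the median thresholded nuclear peak. Replicate 1 had 107 (rank 1023, 143 bp upstream) and replicate 2 had 83.7 (rank 978, 80 bp upstream). The gene let-630 starts 263 bp away on the opposite strand, and the summit was 168 bp upstream of it, so the peak cannot be assigned to either gene.

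The KMN network held both the strongest and the weakest signals of the 10 genes. KNL-3 is a subunit of the Mis12 complex, and its gene lies on chromosome V, 1869213 to 1870558, on the plus strand. The peak spanned 1868215 to 1869447 (1233 bp, and 4.94% of thresholded nuclear peaks were wider than 1000 bp), with the summit 415 bp upstream in the pooled list and in both replicate lists. The signal was 3219 in replicate 1 (rank 10) and 2216 in replicate 2 (rank 16). These were 50.7% and 46.0% of the highest signal in each replicate list. The pooled signal was 35.1 times the median of thresholded nuclear peaks and 38.9 times that at bub-1. The summit lay in an exon of T10B5.3, a gene on the opposite strand that overlaps the 5′ end of knl-3 by 570 bp. It was 227 bp upstream of one annotated start of a T10B5.3 transcript, at 1868571, so a start of T10B5.3 was nearer to it than the 5′ end of knl-3.

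KNL-1 is the scaffold on which the other KMN proteins assemble. Its gene (chromosome III, 8250632 to 8253943, plus strand) had a peak of 143 bp from 8250376 to 8250518, with the summit 160 bp upstream. The pooled signal was 141 at rank 1416, the value in replicate 1 was 85.6 (rank 1419, 188 bp upstream), and the value in replicate 2 was 58.2 (rank 1662, 192 bp upstream). These replicate summits were 4 bp apart. The gene C02F5.10 on the opposite strand held the same summit in its window, 991 bp upstream.

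The KMN genes ndc-80, him-10 and mis-12 were not in the thresholded list. The gene ndc-80 (chromosome IV, 10086137 to 10088437, plus strand), which encodes the microtubule-binding subunit of the Ndc80 complex, had a pooled summit of signal 70.2 at rank 3736, 261 bp upstream. Its values were 45.1 in replicate 1 (rank 3652) and 21.3 in replicate 2 (rank 9298). The summit was also in the windows of the collagen gene col-2 (425 bp) and of a piRNA, 21ur-14295 (393 bp). For him-10, the gene of the Nuf2 subunit (chromosome III, 5803260 to 5805112, plus strand), the pooled summit lay 121 bp downstream of the 5′ end in an intron, with a signal of 49.8 at rank 6411. Replicate 1 placed its summit 62 bp upstream with 25.1 (rank 9758), and replicate 2 placed it 116 bp downstream with 29.2 (rank 5055). The DNA polymerase theta gene polq-1 starts 99 bp from him-10 on the opposite strand and held the same pooled summit, 221 bp upstream. The Mis12 subunit gene mis-12 (chromosome I, 3604515 to 3605744, minus strand) had the lowest signal of the 10 genes. Its pooled signal was 38.0 at rank 10105, 125 bp upstream, with a −log10 q of 0.502. Replicate 2 had a signal of 30.8 at the same position (rank 4568), and the list of replicate 1 had no summit in this window.

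BUB-1 is a kinase of the outer kinetochore with roles in the spindle checkpoint and in chromosome alignment. Its gene (chromosome I, 7251941 to 7255223, plus strand) had a peak from 7251518 to 7252027 with the summit 168 bp upstream. The pooled signal was 139 at rank 1460, or 0.902 times the median thresholded nuclear peak. It was 99.5 in replicate 1 (rank 1137, 256 bp upstream) and 45.8 in replicate 2 (rank 2363, 166 bp upstream), and the ratio of 2.17 was the highest of the 5 thresholded genes. For comparison, the highest signal of the replicate 1 list was 1.32 times that of replicate 2 and its median 1.23 times. The gene lin-61, which encodes a chromatin protein with MBT repeats, starts on the opposite strand and held the summit 491 bp upstream.

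**Figure D2:**
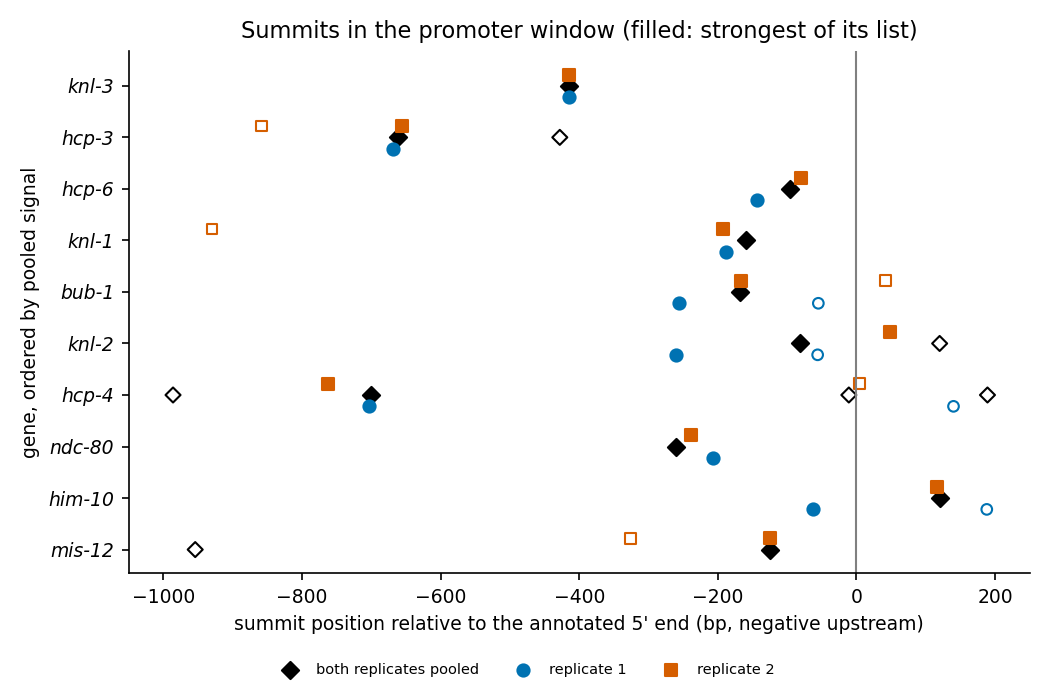
Position of every summit in the promoter window relative to the annotated 5′ end (x axis, bp, negative values upstream) for each gene (y axis, ordered by pooled signal), from the pooled list (diamonds), replicate 1 (circles) and replicate 2 (squares). Filled marks are the strongest summit of each list, and they coincide at knl-3 (415 bp upstream in all 3 lists) and spread by 309 bp between the replicates at knl-2.

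The relaxed pooled list, which holds peaks and background, had a summit in the windows of all 10 genes, against 39.0% of protein-coding genes. The replicate 1 list had a summit at 9 and the replicate 2 list at 10. These lists also hold background, and the share of all protein-coding genes with a summit in them was not computed. The median over the 10 genes was rank 1998 and signal 115.4. The strongest summit was shared with the window of another gene at 6 of the 10 genes and at 3 of the 5 thresholded ones. By gene 5′ ends, the strong summits at knl-3 and hcp-3 were in no other gene's window, but by transcript starts the knl-3 summit was also in that of T10B5.3. The nearest tRNA gene to any of the 10 summits was 21075 bp away, at him-10. Trans-splicing is common in C. elegans, so transcription can start upstream of an annotated 5′ end, and the distances given here are to the annotation.

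A match to the aligned sequence was present at the summits of 2 of the 10 genes, knl-3 and hcp-3. The other 8 scored between −12.5 bits (mis-12) and 1.49 bits (bub-1). Among the nuclear summits of rank 101 to 250 that were not used for the alignment, 118 of 147 (80.3%) held a match, and among ranks 251 to 2449 the share was 5.37%. The 3 thresholded genes without a match, hcp-6, knl-1 and bub-1, lie in the lower range. Over the whole promoter window, 3 of the 10 genes had a match, against 7.13% of all protein-coding windows. The additional gene was him-10, with a score of 11.3 bits 96 bp upstream of its 5′ end, where no thresholded summit lay. With a stricter score threshold him-10 had no match, which left 2 of the 10 genes, beside 1.75% of all windows. Of the 1425 protein-coding windows with a match, 456 (32%) held a thresholded summit and 969 did not.

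**Figure D3:**
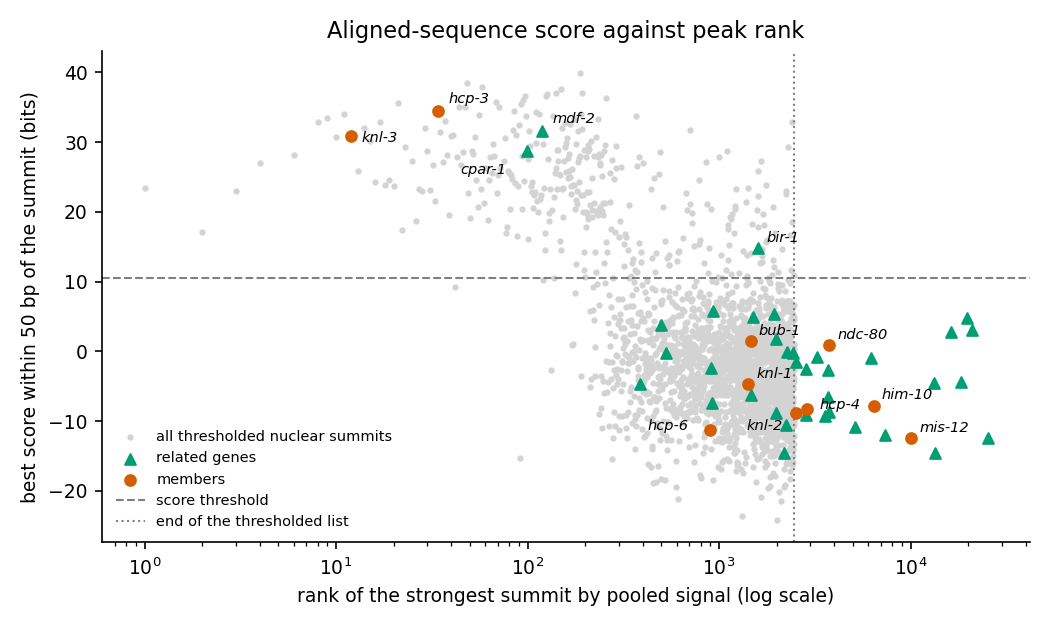
Best score of the aligned sequence within 50 bp of the strongest summit (y axis, bits) against the rank of that summit by pooled signal (x axis, log scale), for all thresholded nuclear summits (grey), the 10 genes (circles) and related genes (triangles), with the score threshold (dashed) and the end of the thresholded list (dotted). The genes knl-3 and hcp-3 lie in the upper left with most strong peaks, while the other 8 lie below the threshold of 10.5 bits.

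The CENP-A paralog cpar-1 had a strong peak of its own, in DNA similar to that at the hcp-3 summit. It lies on the same chromosome III, 9434057 to 9435100, on the plus strand, and encodes a close relative of HCP-3. Its summit lay 259 bp upstream, and its pooled signal was 2164 at rank 99. Replicate 1 gave 1306 (rank 99, 261 bp) and replicate 2 gave 878 (rank 103, 259 bp). Local alignment of the 1000 bp upstream of both genes found 2 long blocks. The proximal block ran from 137 to 3 bp upstream of hcp-3 and from 136 to 3 bp upstream of cpar-1, with 123 of 135 columns identical (91.1%). The other block ran from 744 to 551 bp upstream of hcp-3 and from 333 to 152 bp upstream of cpar-1, with 157 of 196 columns identical (80.1%), and it contained both summits, 9 columns apart. Between the blocks lay 413 bp at hcp-3 and 15 bp at cpar-1, so the distance from the gene differed while the summit stayed at nearly the same aligned position. The longest run of identical bases in the summit block was 26, and that run occurred 2 times in the nuclear genome. Read length is not given in the sources used here, and how reads that fit both places were treated was not tested.

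**Figure D4:**
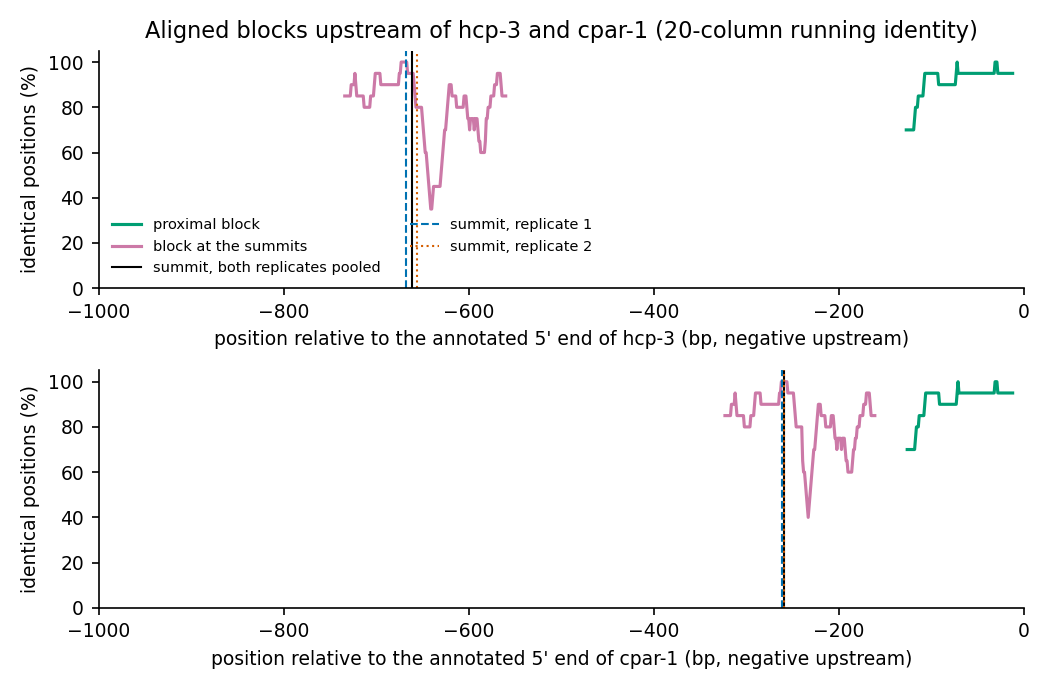
Identical positions in running windows of 20 alignment columns (y axis, percent) against position relative to the annotated 5′ end (x axis, bp, negative values upstream) for hcp-3 (upper panel) and cpar-1 (lower panel), with vertical lines at the summits of the pooled list and both replicates. The summits, 661 bp upstream of hcp-3 and 259 bp upstream of cpar-1, fall in the same aligned block, while the proximal block lies within 137 bp of both genes.

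Beyond the 10 genes, 37 related genes of the centromere, kinetochore, spindle checkpoint, chromosomal passenger complex, condensins and anaphase entry were listed. Of these, 18 had a thresholded summit in the promoter window, beside the 8.18% of all protein-coding genes given above. Among the 100 strongest nuclear peaks there was 1, cpar-1. This list was also drawn up with earlier results of these data known, so its counts are a description and carry no test. The median pooled signal of the related genes with a summit was 93.3. In the relaxed pooled list 36 of 37 had one, against 39.0% of protein-coding genes. The exception was air-2, the Aurora B kinase gene. Of the 18, 15 shared the summit with the window of another gene, and the exceptions were cpar-1, mdf-1 and hcp-1. For the Ndc80 complex, whose subunit genes ndc-80 and him-10 were outside the list, both other subunit genes were inside it, kbp-4 with 297 (rank 499) and kbp-3 with 99.8 (rank 2260). With the strongest peaks of either replicate alone, kbp-3 was not bound, and with summits given to the nearest 5′ end only, kbp-4 was not. The kbp-4 summit lay in an exon of the GTPase gene rab-18 and also upstream of the cell polarity gene par-2, and the kbp-3 summit was shared with the chromatin remodeller gene nurf-1. None of the 3 further KMN genes (kbp-1, kbp-2 and kbp-5) had a thresholded summit.

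In the other classes, the spindle checkpoint genes mdf-2 (Mad2), mdf-1 (Mad1) and san-1 (Mad3) had thresholded summits. These were 3 of the 4 checkpoint genes listed, beside 8.18% of all protein-coding genes. The signals were 1943 (rank 119), 188 (rank 924) and 94.3 (rank 2443). With either replicate alone san-1 was not bound. The replicate values of mdf-2 were 1128 (rank 121) and 860 (rank 113), and its summit lay 29 bp upstream of mdf-2 and 156 bp upstream of nduv-3. Both centromeric chromatin genes of the list were bound. Beside cpar-1 this was lin-53, the gene of a histone chaperone, with 378 at rank 387, shared with nra-2. Both genes of the Ska complex, which helps kinetochores to follow microtubules, were bound, ska-3 with 277 (rank 529, shared with the ribosomal protein gene rps-12) and ska-1 with 111 (rank 1975, shared with Y106G6H.16).

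Outer kinetochore genes were bound at 2 of 4, beside 8.18% of all protein-coding genes. These were cls-2, which encodes a CLASP microtubule regulator (191, rank 903, 941 bp upstream and 317 bp upstream of R107.5), and hcp-1, which encodes a CENP-F-like protein (103, rank 2188). With the strongest peaks of replicate 2 alone, hcp-1 was not bound. The hcp-1 relative hcp-2 had a signal of 25.0 at rank 19647, and the best alignment of their upstream DNA covered 25 columns. Anaphase entry genes were bound at 3 of 4, with the securin gene ify-1 at 188 (rank 919, shared with rpl-22), the cyclin B3 gene cyb-3 at 112 (rank 1945, shared with T06E6.1) and the polo kinase gene plk-1 at 100.4 (rank 2246, shared with the noncoding gene C14B9.15). With the strongest peaks of replicate 1 alone, plk-1 was not bound.

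The remaining classes had 4 to 8 genes each, and their counts stand beside 8.18% of all protein-coding genes. Of 4 genes of the Rod/Zwilch/Zw10 complex with Spindly, czw-1 was bound (136, rank 1509, shared with F20D12.12). With the strongest peaks of replicate 1 alone, czw-1 was not bound. Of 4 chromosomal passenger genes, bir-1, the survivin-like gene, was bound (130, rank 1594, shared with linc-153). Of 8 condensin genes, 2 were bound, dpy-27, which acts in X chromosome dosage compensation (138, rank 1469, shared with the noncoding gene R13G10.5), and smc-4 (111, rank 1979, shared with F35G12.7). Among related genes, a sequence match at the summit was present at 3, cpar-1 (28.8 bits), mdf-2 (31.6 bits) and bir-1 (14.7 bits), and bir-1 had none with the stricter score threshold. Of all thresholded nuclear summits, 13.8% held a match, and 10.1% with the stricter threshold. The cpar-1 match was identical to that of hcp-3 at 28 of 30 positions.

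**Figure D5:**
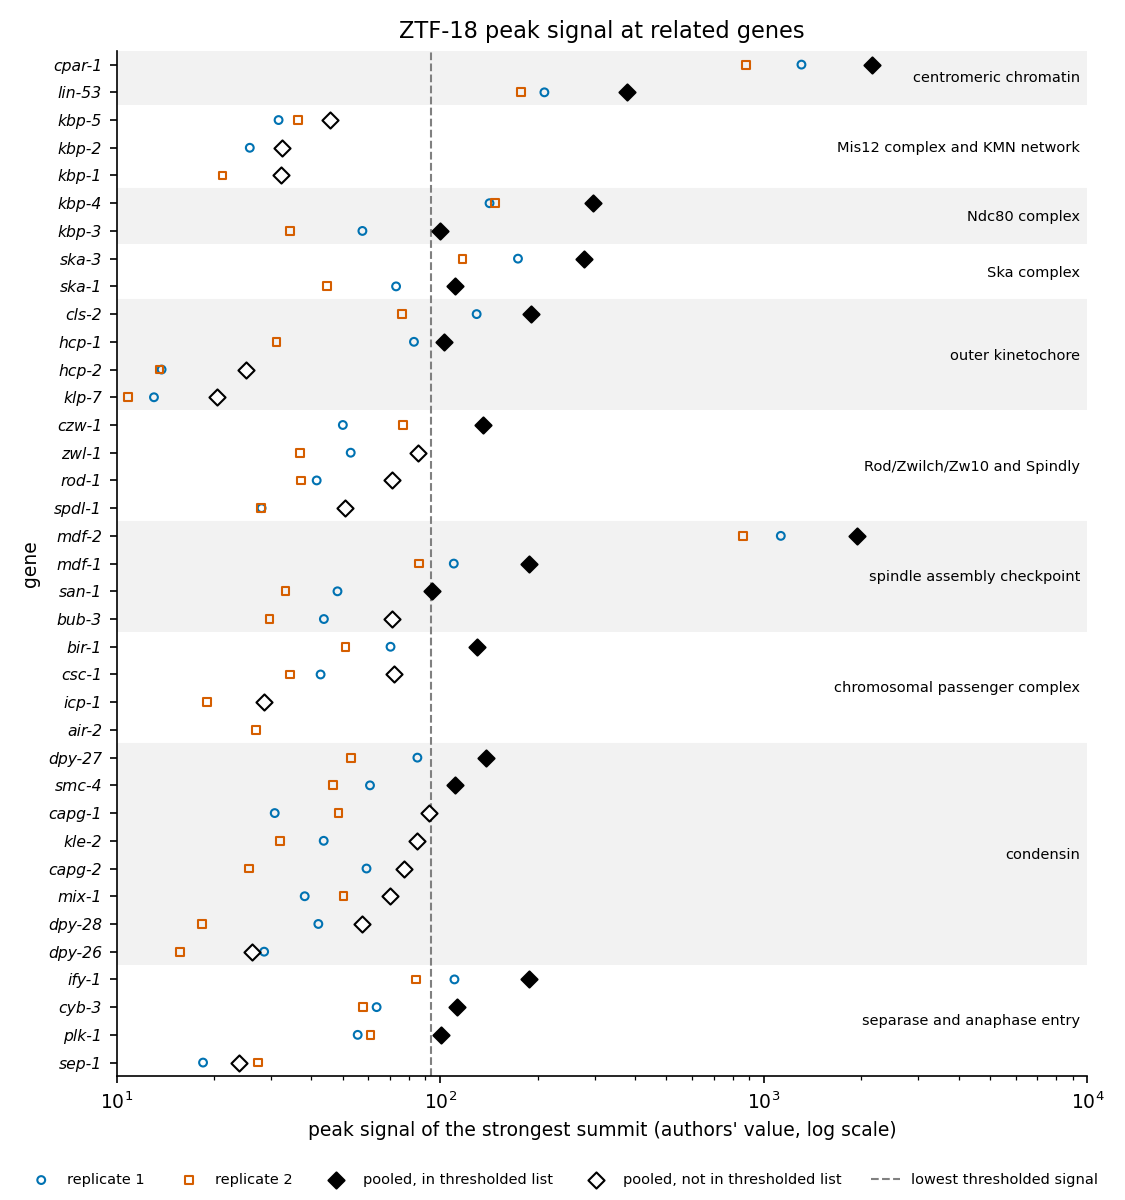
Peak signal of the strongest summit in the promoter window (x axis, authors' value, log scale) of the 37 related genes (y axis), grouped by class, for both replicates pooled (diamonds, filled where the summit is in the thresholded list), replicate 1 (circles) and replicate 2 (squares), with the lowest thresholded signal as a dashed line. The genes cpar-1 (2164) and mdf-2 (1943) stand apart from the rest, of which lin-53 (378) is the highest, and air-2 has no pooled value.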

How the data were processed

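The data are ChIP-seq peak lists of ZTF-18 on ce11 (WBcel235) from 2 replicates. The authors deposited a relaxed list of peaks and background for each replicate and for both pooled, and a list thresholded by reproducibility between replicates. That list ended at a pooled signal of 93.5672, where the next pooled peak had 93.5666. A summit in it need not recur as a summit in each replicate list. This was so at the second hcp-3 summit, which lay inside a peak interval of both replicates. Each peak carries a signal, deposited by the authors, relative to a control alignment that was not analysed here. Its −log10 q was also deposited by the authors. The sources used here do not give the peak caller, aligner, filters, threshold or read length, and read depth is unknown. The thresholded list draws on both replicates, so their likeness there is not independent. Ranks from lists of different lengths show no change.

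Genes came from Ensembl release 115, and the promoter window ran from 1000 bp upstream to 200 bp downstream of the gene's 5′ end. Within each list, peaks were ranked by signal. The aligned sequence began with a word of 8 bases and was refined over 10 rounds, with 2 times the background base share as pseudocount. Flanks were centred 300 bp from summits. Searches covered both strands. The steps were tested on simulated data.

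The members and lists were chosen with earlier results of these data known, and rank ranges 101 to 250 and 251 to 2449 after seeing the data. No test was made. The named genes are the 10 members, genes sharing their strongest summit, and related genes with a thresholded summit. Other related genes were named after their values were seen. Alternatives covered each replicate alone, other windows, gene assignments, list thresholds, overlap rules and sequence settings. Python 3.11.15, numpy 2.4.6, pandas 2.3.3, Biopython 1.88 and matplotlib 3.10.9 were used.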

Additional observations from a re-analysis of the deposited data

How the results depend on the processing

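With each replicate's strongest peaks in place of the thresholded list, the bound members numbered 5 without replicate 1, beside 7.82% of all genes. Without replicate 2 they numbered 6 (7.85%), where knl-2 was added. The related genes numbered 17 (without kbp-3, hcp-1 and san-1, and with mix-1 and capg-1) and 15 (without kbp-3, czw-1, san-1 and plk-1, and with capg-2). Among members, 5 were bound with a window from 500 bp upstream, beside 6.57% of all genes. Also 5 were bound with nearest gene 5′ ends (6.02%) and with every transcript 5′ end (8.75%). With knl-2 there were 6 with a window from 2000 bp upstream (10.6%) or with interval overlap (9.03%). Nearest ends were taken from gene models, and by transcript starts T10B5.3 was nearer to the knl-3 summit than knl-3. Under these windows, assignments and overlap rules the related genes numbered 14 to 19, and nearest 5′ ends left out kbp-4, ska-1, cls-2 and smc-4. In the stronger of 2 equal parts of the list, 3 members (hcp-3, hcp-6 and knl-3) and 8 related genes were bound, beside 4.28% of all genes. In the relaxed pooled list the counts were 10 and 36, beside 39.0% of all genes. Members with a sequence match at the summit numbered 2 with a stricter score threshold and with 250 aligned peaks. In these settings 10.1% and 15.2% of all thresholded nuclear summits held a match. With the stricter threshold, him-10, rod-1 and bir-1 lost their matches. Another window left 17 of 20 member signals the same. With 500 bp, hcp-3 took its weaker summit (233, rank 674) and hcp-4 another (44.7, rank 7630), and with 2000 bp knl-2 took a signal of 115.02 (rank 1889). No paired analysis was possible because there is 1 group. The signal has no stated scale and no error of its own, depth is unknown, and at shared summits the target gene cannot be told apart.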

Other observations

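Among the related genes, rod-1, of the Rod/Zwilch/Zw10 complex, had a sequence match of 14.5 bits in its promoter window and no thresholded summit. At a stricter percentile of flank scores rod-1 had no match. There, 349 protein-coding windows held a match, and 288 of them (82.5%) also held a thresholded summit. The condensin gene capg-1 lay just below the end of the thresholded list with a signal of 92.2 at rank 2528. The lowest pooled signal of the related genes was 20.5, at klp-7, which encodes a microtubule-depolymerizing kinesin.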
